A study of Mus musculus with 4 samples.

Results

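Indian hedgehog (Ihh) and parathyroid hormone-related protein (PTHrP, gene Pthlh) form the feedback loop that sets the pace of cartilage growth in the growth plate. Ihh from prehypertrophic chondrocytes binds the receptor Ptch1 and so frees the transducer Smo, and the signal reaches the nucleus through Gli1, Gli2 and Gli3. The signal also raises PTHrP, which acts on its receptor Pth1r to hold chondrocytes back from hypertrophy. Ptch1 and Hhip bind the ligand and limit its spread, and both are known targets of the pathway, as is Gli1. In bone, osteoblasts carry Pth1r too, and Ihh is needed for osteoblasts to form next to the growth plate.

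The loop was taken as 9 genes, chosen by name, and was read from all probe sets annotated to exactly 1 of them. Of the 9 genes, 8 had such probe sets, 18 in all, out of 18194 genes and 45037 probe sets. Pthlh was not analysed here, so the loop was read without its PTHrP ligand. Ptch1, Smo and Gli3 had 3 probe sets each, Hhip 4, Gli2 2, and Ihh, Gli1 and Pth1r 1 each. Both Gli2 probe sets were designed from the same expressed sequence tag, and so were 2 of the Smo ones, so these are not separate measurements of different sequence.

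The samples were bone marrow cells of adult NOD/SCID recipient mice (NOD.CB17-Prkdc scid/J), whose scid mutation blocks mature B and T cells. Cells were sorted as osteoblasts by carrying the integrin CD51 and lacking CD45, CD31, Sca1 and lineage antigens. They came from the trabecular bone area (2 arrays) or from the long bone area (2 arrays), with strain and sort shared by both. The labels call the arrays of an area biological replicates and do not say which mice they came from, so p-values cover only how these samples spread, which may be technical.

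The deposited values, taken as log2 because RMA gives that scale, were centred on each probe set's median over the 4 arrays, so differences between arrays are measured and levels are not. The precision of the stored numbers still places a probe set's level before centring in a coarse band, which also depends on its probes. By this reading 2 of the 18 probe sets, 1 of Ptch1 and 1 of Smo, lay at 8 or above on the log2 scale, 14 at 4 to 8 and 1 of Smo at 2 to 4. The Ihh probe set could not be read. Of all probe sets that could be read, 33.8%, 62.1% and 4.12% lay in these bands. Of 9 probe sets for osteoblast markers 6 read at 8 or above, among them both of Col1a1, and 1 of 17 for chondrocyte markers did. Both kinds of marker were lower in the trabecular area, so their bands mostly describe trabecular arrays. Of 9 for blood markers 3 read at 8 or above, among them 1 of the 2 for Ptprc, the gene of the CD45 antigen that the sort selected against.

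The second long bone array was unlike the rest. It had 2493 probe sets 2-fold or more away from their median, where the other arrays had 383 to 848. For the Gapdh control, the 5' probe set minus the 3' one gave -1.16 there and -0.09 to 0.31 elsewhere. Spiked hybridisation controls had medians of -0.21 and -0.23 on the trabecular arrays, against 0.31 and 0.28 on the long bone arrays.

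The promoters of Ptch1 and Hhip are shown by the 250 bases before their RefSeq transcript starts (build GRCm38.p6), because these antagonists are the pathway targets among the 8 genes whose values did not overlap between the areas. Capitals mark the GC box GGGCGG or its reverse complement CCGCCC.
Ptch1, chr13:63565736-63565985, minus strand: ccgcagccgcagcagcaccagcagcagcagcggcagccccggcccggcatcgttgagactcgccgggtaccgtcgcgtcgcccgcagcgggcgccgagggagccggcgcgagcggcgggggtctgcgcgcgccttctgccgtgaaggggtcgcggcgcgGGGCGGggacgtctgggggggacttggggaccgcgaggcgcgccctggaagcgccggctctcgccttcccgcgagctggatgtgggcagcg
Hhip, chr8:80058009-80058258, minus strand: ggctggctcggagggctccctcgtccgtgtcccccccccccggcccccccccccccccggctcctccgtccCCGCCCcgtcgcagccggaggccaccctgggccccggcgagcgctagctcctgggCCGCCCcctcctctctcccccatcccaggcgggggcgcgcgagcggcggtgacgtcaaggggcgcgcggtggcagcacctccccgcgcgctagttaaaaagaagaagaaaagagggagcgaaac

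Both windows were rich in G and C, at 78.4% for Ptch1 and 76% for Hhip, against a median of 52.4% over 32851 windows. A GC box was present in 8 of the 10 windows of 8 loop genes (Pth1r has 3 windows, and Pthlh 1) and in 32.7% of all windows. These 8 include Pthlh and leave out Gli1, which had no window and was not searched. The GLI consensus TGGGTGGTC, searched on both strands with at most 1 letter changed, was in 0 of the 10 windows and in 5.79% of all windows. Exact matches were in 0.225% of all windows. A window without a match says only that these letters are not in these 250 bases.

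Across the loop, values in the trabecular area were mostly below those in the long bone area, and the size differed widely between genes and between probe sets of 1 gene. Of the 18 probe sets 16 were lower in the trabecular area, where 51.1% of all probe sets were. Without overlap between the areas 9 were lower and 0 higher, where 26.2% and 25.9% of all probe sets were. These 9 belong to 5 genes, 4 of them to Hhip alone, so they are not 9 independent readings. At least 2-fold lower without overlap were 2, Ptch1 1428853_at and the Pth1r probe set, where 2.71% of all probe sets were. The median log2 difference, trabecular minus long bone, was -0.33 over the 18 and -0.01 over all probe sets.

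**Figure D1:**
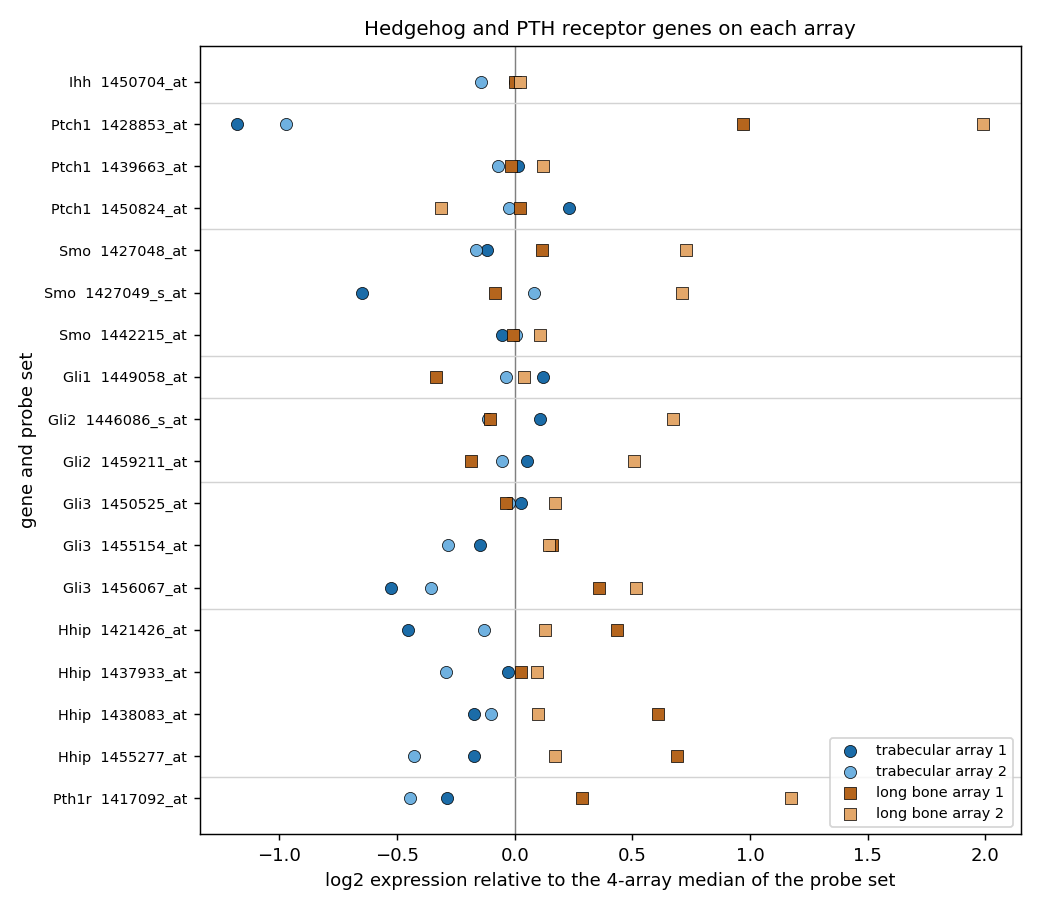
Log2 values of the 18 probe sets relative to their own 4-array median (x axis), by gene and probe set (y axis), with circles for trabecular arrays and squares for long bone arrays. The widest gap is that of Ptch1 1428853_at. Long bone array 2 is the highest for most probe sets, among them this one, Pth1r, all Smo and both Gli2 probe sets. For Ihh, trabecular array 1 lies under long bone array 1 at 0.

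No probe set of the loop passed the test. With limma and Benjamini-Hochberg adjustment over all 45037 probe sets, 0 of the 18 and 0% of all had an adjusted p under 0.05, and the lowest among the 18 was 0.189. At an unadjusted p under 0.05 there were 6, all lower in the trabecular area, where 7.35% of all probe sets were lower at that threshold. Per gene, using the mean of its probe sets, 0 of 8 passed, and 4 were at an unadjusted p under 0.05 (Ptch1, Gli3, Hhip and Pth1r), all lower, where 4.62% of all genes were. Ordinary t statistics in place of the moderated ones also gave 0 of the 18. With 2 arrays in each area, the smallest two-sided p of an exact permutation test is 0.333.

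For Ihh, the ligand, no difference was detectable with these arrays. Its probe set 1450704_at was at 0 and -0.14 in the trabecular area, against 0 and 0.02 in the long bone area. The groups overlapped, as trabecular array 1 and long bone array 1 held the same value. The log2 difference was -0.08 with a 95% interval of -0.44 to 0.27, within which no 2-fold difference lies. RMA values compress the folds of dim genes, and whether this probe set read above its background is not known from a centred table.

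Ptch1, the receptor of Ihh, had the single probe set with the largest difference of the loop, and its probe sets disagreed by more than those of any other loop gene with several. Probe set 1428853_at was at -1.18 and -0.97 in the trabecular area, against 0.97 and 1.99 in the long bone area. Both trabecular arrays were low and both long bone arrays high, long bone array 2 the higher. The trabecular mean was -1.08 ± 0.15 and the long bone mean 1.48 ± 0.72 (SD over 2 arrays each), which is 5.88-fold lower in the trabecular area. The log2 difference was -2.56 (SE 0.38, 95% interval -3.60 to -1.52, limma adjusted p = 0.189), the 131st lowest of 45037 probe sets. Without long bone array 2 it was -2.05.

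The other Ptch1 probe sets gave values near 0. Probe set 1439663_at was at 0.01 and -0.07 in the trabecular area, against -0.01 and 0.12 in the long bone area, a difference of -0.08 (95% interval -0.44 to 0.28). Probe set 1450824_at was at 0.23 and -0.02 in the trabecular area, against 0.02 and -0.31 in the long bone area, a difference of 0.25 (-0.27 to 0.77). Both overlapped between the areas, and their intervals do not reach that of 1428853_at. Within each array, 1428853_at minus 1450824_at was -1.41 and -0.95 in the trabecular area, against 0.95 and 2.31 in the long bone area. That gap differed by -2.81 between the areas, and the gap of 1428853_at to 1439663_at by -2.48. For each the exact permutation p was 0.333, the smallest possible, so this test cannot decide. As 1428853_at was taken for its widest range on these same arrays, a wide gap is partly built in. Their level bands, set by the lowest array, were 4 to 8 for 1428853_at and 1450824_at and 8 or above for 1439663_at. For 1428853_at the lowest array is a trabecular one. Where in the transcript each probe set reads is not known here.

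As the mean of its 3 probe sets Ptch1 was at -0.31 and -0.35 in the trabecular area, against 0.33 and 0.60 in the long bone area. That is a log2 difference of -0.80 (95% interval -1.19 to -0.40, limma adjusted p = 0.240), against -2.56 when the probe set with the widest range stands for the gene. Without long bone array 1 the gene differed by -0.93, and without long bone array 2 by -0.66. Either way 1 long bone array is left, so the spread of such a fit comes only from the trabecular arrays.

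**Figure D2:**
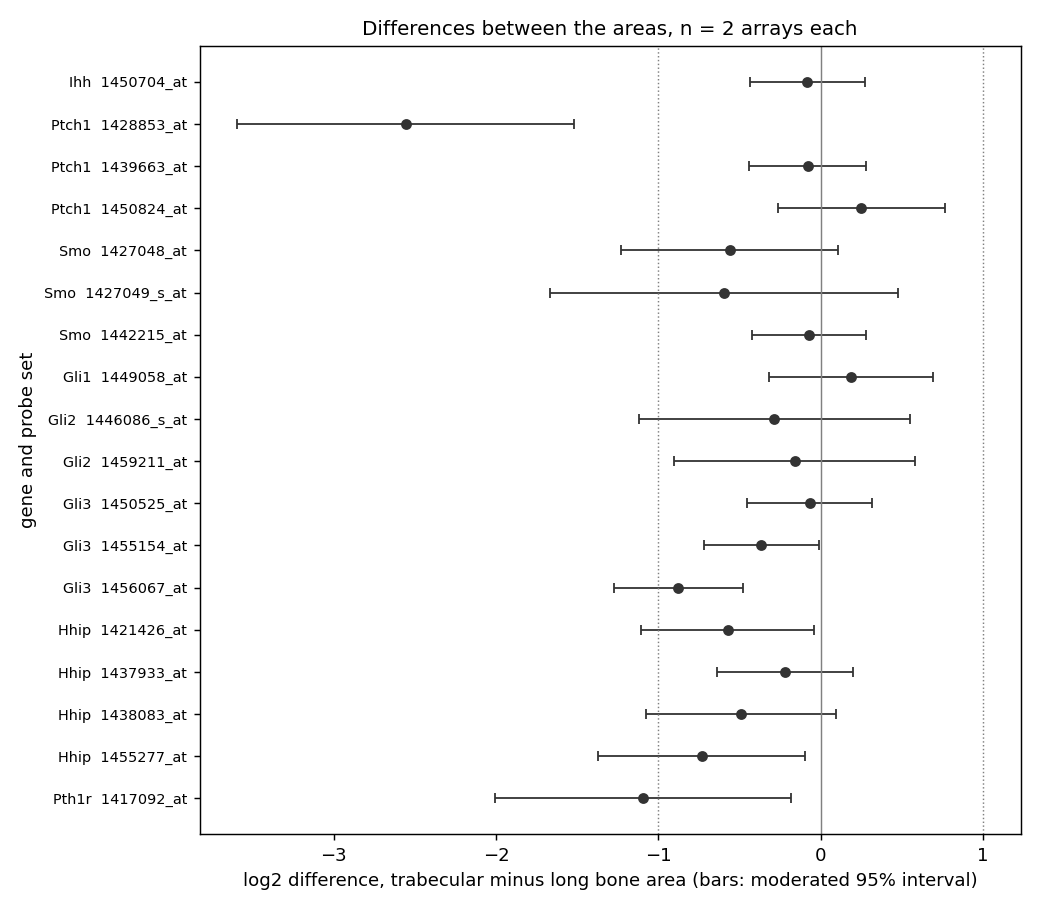
Log2 difference of each probe set (x axis, trabecular minus long bone area, n = 2 arrays each) with its moderated 95% interval, by gene and probe set (y axis), with dotted lines at 2-fold. The interval of Ptch1 1428853_at, -3.60 to -1.52, lies beyond 2-fold, while the other Ptch1 probe sets lie near 0.

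Smo, the transducer that Ptch1 holds in check, was lower in the trabecular area in each of its 3 probe sets, by small amounts. Probe set 1427048_at was at -0.12 and -0.16 in the trabecular area, against 0.12 and 0.73 in the long bone area. Its areas did not overlap, and the log2 difference was -0.56 (95% interval -1.23 to 0.11). Probe set 1427049_s_at, from the same expressed sequence tag, was at -0.65 and 0.08 in the trabecular area, against -0.08 and 0.71 in the long bone area. These overlapped, with a difference of -0.60 (-1.67 to 0.48), and 1442215_at differed by -0.07. The gene mean differed by -0.41, and by -0.16 without long bone array 2.

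Gli1, the pathway's own transcriptional target and an activator, was the gene of the loop with a higher mean in the trabecular area. It was at 0.12 and -0.04 in the trabecular area, against -0.34 and 0.04 in the long bone area. The areas overlapped, and the log2 difference of 0.19 (95% interval -0.32 to 0.69) rested on long bone array 1, without which it was 0.0017, and was 0.38 without array 2. Among the 3 known targets in the loop, Hhip and 1 Ptch1 probe set were lower without overlap and Gli1 overlapped. The difference between Gli1 and the other targets was not tested.

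Gli2, the main activator of the pathway in cartilage, was highest on long bone array 2. Probe set 1446086_s_at was at 0.11 and -0.11 in the trabecular area, against -0.11 and 0.67 in the long bone area. The second, 1459211_at, was at 0.05 and -0.05 in the trabecular area, against -0.19 and 0.51 in the long bone area. In both the areas overlapped and 1 array alone was high. The gene mean differed by -0.22 (95% interval -0.96 to 0.51), and by 0.14 without long bone array 2.

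Gli3, which acts mostly as a repressor when the signal is off, was lower in the trabecular area and tight within each area in 2 of its 3 probe sets. Probe set 1456067_at was at -0.53 and -0.36 in the trabecular area, against 0.36 and 0.52 in the long bone area. The log2 difference was -0.88 (SE 0.14, 95% interval -1.27 to -0.48, limma adjusted p = 0.199), 1.84-fold lower. Probe set 1455154_at was at -0.15 and -0.28 in the trabecular area, against 0.16 and 0.15 in the long bone area, a difference of -0.37 (-0.72 to -0.01). The third, 1450525_at, differed by -0.07 and overlapped. The gene mean differed by -0.44, with values from -0.38 to -0.50 when any 1 array was left out.

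Hhip, the membrane-anchored decoy that binds hedgehog ligands, was lower in the trabecular area without overlap in all 4 of its probe sets. The probe set with the largest difference, 1455277_at, was at -0.17 and -0.43 in the trabecular area, against 0.69 and 0.17 in the long bone area. Its log2 difference was -0.73 (SE 0.23, 95% interval -1.37 to -0.09, limma adjusted p = 0.277). Probe set 1421426_at was at -0.45 and -0.13 in the trabecular area, against 0.43 and 0.13 in the long bone area, a difference of -0.57 (-1.11 to -0.04). The remaining pair, 1438083_at and 1437933_at, differed by -0.49 and -0.22. Long bone array 1, not array 2, was the higher one in 3 of the 4 probe sets. As a gene Hhip differed by -0.50 (-0.92 to -0.09), by -0.35 with long bone array 1 left out and by -0.66 with array 2 left out.

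Pth1r, the receptor of PTHrP and of parathyroid hormone, was 2.13-fold lower in the trabecular area. Its probe set 1417092_at was at -0.29 and -0.44 in the trabecular area, against 0.29 and 1.17 in the long bone area. The areas did not overlap, and long bone array 2 lay far above array 1. The log2 difference was -1.09 (SE 0.33, 95% interval -2.01 to -0.18, limma adjusted p = 0.267 among probe sets). Leaving out long bone array 2 gave -0.65, and leaving out array 1, so that only the unlike array 2 stood for the long bone area, gave -1.54.

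**Figure D3:**
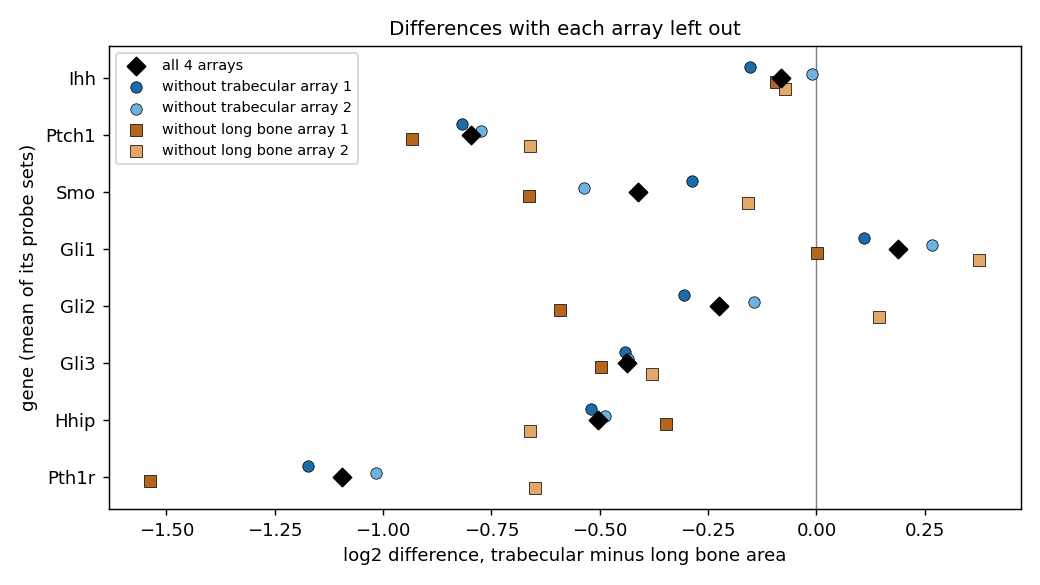
Log2 difference of the 8 genes (x axis, trabecular minus long bone area, mean of a gene's probe sets) with all 4 arrays (diamonds) and with each array left out (circles and squares), by gene (y axis). Ptch1, Smo, Gli3, Hhip, Pth1r and Ihh stay below 0 whichever array is left out, although Ihh is at -0.01 without trabecular array 2. Pth1r ranges from -1.54 to -0.65, and Gli2 lies above 0 without long bone array 2.

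By size of the difference, lowest in the trabecular area first, the genes ran Pth1r, Ptch1, Hhip, Gli3, Smo, Gli2, Ihh, Gli1. The intervals of each pair of neighbours in this order overlap. Differences between genes were not tested, so the order is a description. The genes whose values over the 4 arrays lay closest to Pth1r, by Euclidean distance among 18194 genes, were Crip2 (distance 0.0971), Maged1 (0.104) and Etnppl (0.114). Closest to Ptch1 1428853_at among named probe sets were those of Frmd4b (0.125), Fap (0.173) and Ppp1r9a (0.261), a list looked up after its values were seen. With 4 arrays such likeness is a description.

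Values of some cell type markers also differed between the areas. In bulk RNA, fewer cells of a type and less RNA per cell cannot be told apart. All 9 chondrocyte markers were lower in the trabecular area without overlap, where 21.4% of all genes were. Their medians were -1.64 and -1.61 on the trabecular arrays, against 1.66 and 1.61 on the long bone arrays. All 5 osteoblast markers analysed here were lower without overlap too, beside the same 21.4%, with medians of -1.06 and -0.41 against 0.24 and 0.78. All 5 reticular stroma markers were lower on average, where 45.4% of all genes were. Their median was 0.09 and -0.58 in the trabecular area, against -0.07 and 1.63 in the long bone area. Long bone array 2 alone was thus high. The adipocyte median was likewise 1.42 on that array, against -0.30 to 0.16 elsewhere. The part of these cell types in the values of the loop genes, Hhip and Gli3 included, was not tested. Of 5 tendon and fibroblast markers and of 5 smooth muscle markers 4 each were lower, where 45.4% of all genes were. Their median differences were -0.27 and -0.37. On long bone array 2 their medians were 0.83 and 0.64, and on the other arrays they lay between -0.25 and -0.0098. Without that array Tnmd was at 0.28, Tagln at 0.25 and Acta2 at 0.36, so that their signs turned. The sort antigens analysed here, Itgav (the gene of CD51), Ptprc and Pecam1 (the gene of CD31), differed by -0.34 to -0.02. Ptprc, at -0.34, was at 0.59 and -0.50 on the long bone arrays. Its difference was 0.20 with long bone array 1 left out and -0.88 with array 2 left out. Endothelial and blood medians lay between -0.11 and 0.07 on all 4 arrays. The spread of the blood markers was wide, with Itgam at a difference of 1.68 (1.03 and 0.22 in the trabecular area, against -0.22 and -1.87 in the long bone area), or 0.85 without long bone array 2.

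In the rest of the hedgehog pathway more genes were lower in the trabecular area than higher, by small amounts. Of 27 genes measured out of 28 listed, 17 were lower, where 45.4% of all genes were, and 10 higher. Without overlap 12 were lower and 4 higher, where 21.4% and 29.9% of all genes were. The median log2 difference was -0.14 over the list and 0.03 over all genes. Gas1, a co-receptor that helps cells respond to hedgehog ligands, was at -0.15 and -0.71 in the trabecular area, against 0.14 and 0.53 in the long bone area, a difference of -0.77 (-0.49 without trabecular array 2). The co-receptors Cdon and Boc differed by -0.40 and -0.26, and Evc and Evc2, which bind Smo in the cilium, by -0.29 each. Without long bone array 2 Boc was at -0.07 and Evc at -0.14. Kif7, the ciliary kinesin that controls Gli proteins, differed by -0.35, while Sufu, which holds Gli proteins in the cytoplasm, differed by 0.05 (-0.02 without long bone array 1). Spop, an adaptor for Gli protein breakdown, had the largest difference the other way, 0.54, or 0.22 without long bone array 2. Of the other ligands, Shh and Dhh differed by -0.16 and 0.13 with overlap, and Shh was at 0.09 without long bone array 2. With limma 0 of the 27 passed over all genes, and 2 were at an unadjusted p under 0.05, where 2811 of all 18194 genes were. Without long bone array 2 the list's median was -0.04.

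Target genes of the pathway outside the loop did not share one direction. Of 16 measured 11 were lower, where 45.4% of all genes were, and 5 higher. Without overlap 4 were lower and 1 higher, where 21.4% and 29.9% of all genes were, and the median was -0.15. Bcl2, which blocks apoptosis, was at -0.53 and -0.29 in the trabecular area, against 0.21 and 0.72 in the long bone area, a difference of -0.87. Ccnd1, the cyclin through which hedgehog signals promote division, differed by -0.32 without overlap. Snai2, a transcription factor of mesenchymal cells, had a difference of -1.78 that rested on long bone array 2, at 2.72 there and -0.71 to 0.07 elsewhere, and was -0.45 without it. The forkhead genes Foxf1, Foxf2 and Foxl1 lay between -0.07 and 0.06, and each turned its sign with 1 array left out. With limma 0 of the 16 passed, and 1 was at an unadjusted p under 0.05, where 2811 of all 18194 genes were. Without long bone array 2 the list's median was -0.0065. Primary cilium transport genes, which hedgehog signalling needs, numbered 18, with 8 lower, near the 45.4% of all genes, 10 higher and a median of 0.11. Ift20 and Ift52 led the higher side at 0.57 and 0.53. Of these 18, 0 passed and 2 were at an unadjusted p under 0.05, beside the same 2811 of 18194.

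**Figure D4:**
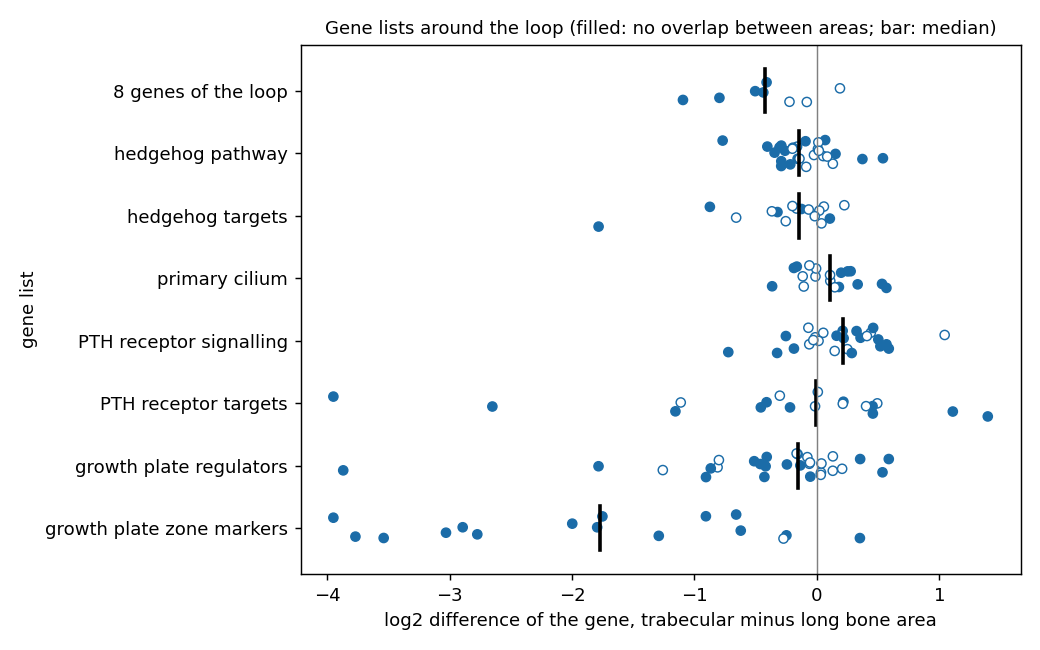
Log2 difference of each gene (x axis, trabecular minus long bone area) in the 8 genes of the loop and 7 lists around it (y axis), filled where the areas do not overlap, with a bar at the list's median. The growth plate zone markers reach -3.95 with a median of -1.77, while the hedgehog and PTH receptor lists have medians between -0.15 and 0.21.

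Among PTH receptor signalling genes other than Pth1r, which was lower, more were higher than lower in the trabecular area. The list holds ligands and another receptor too (Pth, Pth2 and Pth2r), which are not downstream of Pth1r. Of 27 measured out of 28 listed, 19 were higher and 8 lower, where 45.4% of all genes were lower. Without overlap 11 were higher and 4 lower, where 29.9% and 21.4% of all genes were. The median was 0.21, or 0.06 without long bone array 2, and 0.03 over all genes. Gnas, the stimulatory G protein subunit of the receptor, differed by 0.05 with overlap (-0.02 without trabecular array 1). Adcy6, an adenylyl cyclase, had the lowest value at -0.72 (-0.28 without long bone array 2). Prkar1a, a regulatory subunit of protein kinase A, differed by 0.52, the coactivator Crtc2 by 0.57 (0.32 without long bone array 2), and Hdac4, which restrains chondrocyte hypertrophy downstream of PTHrP, by 0.59 (0.23 without long bone array 2). The largest difference was 1.04 for Arrb2, an arrestin, which overlapped between the areas. It rested on long bone array 2, at -1.97 there, and was 0.04 without it. With limma 0 of the 27 passed, and 2 were at an unadjusted p under 0.05, where 2811 of all 18194 genes were.

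Genes that the receptor is known to induce or repress in bone cells spread widely and had no common direction. Of 18 measured 9 were lower and 9 higher, near the share of all genes, 45.4% of which were lower. Without overlap 6 were lower and 5 higher, where 21.4% and 29.9% of all genes were. The median was -0.0036, and its sign turned between settings. Mmp13, the collagenase of hypertrophic cartilage and osteoblasts, was at -1.68 and -2.25 in the trabecular area, against 1.68 and 2.30 in the long bone area, a difference of -3.95. Il6, a cytokine, differed by -2.65. Tnfrsf11b, the decoy receptor osteoprotegerin, differed by -1.16, which rested on long bone array 1, and by -0.20 without it. Tnfsf11, the osteoclast-inducing ligand RANKL, differed by -1.11 with overlap. That difference rested on the other array, long bone array 2, at 2.02 there, and was -0.07 without it. Nfil3, a transcription factor that parathyroid hormone induces, was higher, at 0.91 and 0.46 in the trabecular area, against -0.97 and -0.46 in the long bone area (difference 1.40). Fosb differed by 1.11, and by 0.68 without long bone array 1, and Sost, the secreted Wnt inhibitor that parathyroid hormone represses, by -0.01 with overlap and by 0.09 without long bone array 2. With limma 0 of the 18 passed, and 4 were at an unadjusted p under 0.05, 2 in each direction, where 2811 of all 18194 genes were.

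Other regulators of the growth plate were lower in 20 of 29 measured cases, where 45.4% of all genes were, and higher in 9. Without overlap 13 were lower and 3 higher, where 21.4% and 29.9% of all genes were. Their median was -0.16, or -0.05 without long bone array 2. Bmp2, a growth factor that works alongside Ihh in cartilage, was at -0.61 and -0.64 in the trabecular area, against 0.61 and 1.72 in the long bone area, a difference of -1.78. Ccn2, a matricellular protein of growth plate cartilage, differed by -3.87 and was lower in trabecular array 2 than in array 1 by over 2 log2 units. Npr2, the receptor through which C-type natriuretic peptide lengthens bones, differed by -0.91. Fgfr3 and its ligand Fgf18, which slow chondrocyte division and Ihh signalling, differed by -0.42 and -0.43 without overlap. Foxa3, a factor of hypertrophic differentiation, differed by -0.41, and Foxa2 by -0.08 with overlap (0.07 without long bone array 2). With limma 0 of the 29 passed, and 10 were at an unadjusted p under 0.05, where 2811 of all 18194 genes were. Of these 10, 8 were lower, where 4.62% of all genes were lower at that threshold.

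Growth plate zone markers were lower in the trabecular area by large amounts. Of 16 measured 15 were lower, 14 without overlap and 10 at least 2-fold without overlap, where 45.4%, 21.4% and 1.17% of all genes were. The list was chosen with earlier results of these data known, so these shares are a description. Col2a1, Acan, Matn3, Hapln1 and Cnmd are also among the chondrocyte markers above. Ibsp and Alpl are among the osteoblast markers and Mmp13 among the PTH receptor targets, so these are not separate results. The median was -1.77. Among markers of resting and dividing chondrocytes, Matn3, a matrix adaptor, was at -3.54, Col2a1, the main cartilage collagen, at -3.77, Hapln1, a proteoglycan link protein, at -3.03, and Cnmd, which keeps vessels out of cartilage, at -2.77. Clu, a secreted chaperone of articular and growth plate cartilage, differed by -2.89. Among markers of the prehypertrophic and hypertrophic zones, where Ihh and its responses lie, Mmp13 had the largest difference of the list, -3.95. Ibsp, the sialoprotein of mineralising matrix, was at -1.06 and -0.94 in the trabecular area, against 1.14 and 0.86 in the long bone area, 3.99-fold lower without overlap (limma adjusted p = 0.131). Alpl, a phosphatase that mineralisation needs, differed by -0.66 and Panx3, a channel of hypertrophic chondrocytes, by -0.62, or -0.30 and -0.40 without long bone array 2. Col10a1, the collagen of the hypertrophic zone, differed by -0.27 with overlap, or 0.04 without long bone array 2. Col10a1 was at -0.0054 and 0.0054 in the trabecular area, against -0.04 and 0.58 in the long bone area. Vegfa, which draws vessels into the growth plate, was the exception at 0.35 (0.15 without long bone array 1). With limma 0 of the 16 passed over all genes, the lowest adjusted p being 0.0991. At an unadjusted p under 0.05 were 12, all lower, where 4.62% of all genes were lower at that threshold.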

How the data were processed

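RNA of sorted marrow cells was amplified, labelled and hybridised to 4 Affymetrix arrays, 2 per area, per the labels' protocols; the probe sets are those of a mouse array, although the series text names a human one. The deposited values were made by the authors with RMA, per the submitters' processing notes, and are centred per probe set (median over 4 arrays 0). The deposited values were taken as log2, the scale RMA gives; no source used here names the log base or the centring software, and every fold rests on that reading. Of the 45101 probe sets, 64 are controls and were not tested. Of the rest, the annotation gives 1 gene for 34945, several for 932 and no gene for 9160. Gene values are means of 1-gene probe sets. The test was limma's moderated one (version 3.58.1, R 4.3.3, lmFit and eBayes, 2 residual and 2.17 prior degrees of freedom) on trabecular minus long bone values, with Benjamini-Hochberg adjustment and calls at 0.05. Intervals are 95% moderated intervals.

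The design foresaw a count of probe sets at least 2-fold apart (log2 difference of 1) without overlap, and a level band from the power-of-2 step of the stored numbers. The band needs at least 3 values of 0.001 or more and is set by the lowest array. Members and gene lists were chosen with earlier results of these data known, and some genes stand on more than 1 list. Named genes are the 8 genes, list members at least 2-fold apart without overlap (up to 6 per list and direction, or else the 2 largest without overlap) and the 3 nearest profiles; others were picked for their role or after their values were seen. The number of arrays limits the precision. Between any pair of arrays 65 to 107 probe sets held identical values. Same-numbered arrays did not deviate together (correlation of deviations -0.18), so numbers were not taken as pairs. Promoter windows are RefSeq's, GRCm38.p6; the deposited table names no build.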

Additional observations from a re-analysis of the deposited data

How the results depend on the processing

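With 2 arrays per area, no probe set of the loop was called under any of the 12 settings tried on probe sets. This holds for probe sets only, as some results for loop genes did pass the adjusted threshold outside the main fit. The number of genes called over all genes was 0, but 1 with ordinary t statistics, 2 with the widest-range probe set per gene, and 0 to 1603 with 1 array left out; that of all probe sets was 0, but 1 with ordinary t statistics. The loop's 2 probe sets at least 2-fold apart without overlap were 1 to 2 with 1 array left out. The replicate block called 0 probe sets and 0 genes (5707 and 2450 at an unadjusted p under 0.05, against 7325 and 2811), and the crossed replicate block, added after seeing the data, also 0 (7340 and 2709). The direction turned without long bone array 2 for Gli2 (0.14, in a range of -0.59 to 0.14 with 1 array left out), its probe sets 1446086_s_at (-0.68 to 0.10) and 1459211_at (-0.51 to 0.19), and Gli3 1450525_at (-0.17 to 0.035); the cause was not tested. The median of PTH receptor targets, -0.0036, was 0.083 after quantile normalization, 0.0012 with arrays centred on their median, 0.19 with the widest-range probe set, and -0.41 to 0.18 with 1 array left out, among them 0.15 when this was long bone array 2. In counts added after seeing the data, 13 of the 18 probe sets were lower without long bone array 2. The zone markers at least 2-fold lower without overlap numbered 10 without long bone array 2. No share over all probe sets or genes is given for that setting, so these counts are a description. With 1 long bone array left, a lack of overlap is also easier to meet.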
